A study of Mus musculus with 8 samples.

Results

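Control mouse embryonic stem cells (ES cells) were compared before and after differentiation to day 2 embryoid bodies (EBd2), the aggregates that ES cells form when they begin to differentiate. These are the libraries whose titles give floxed Skp1a (fl/fl), and they were chosen by those titles: 2 of fl/fl ES cells (lots 1 and 2) and 2 of fl/fl EBd2 (lots 1 and 12), 4 of the 8 libraries in the series. The other 4 libraries are ES cells and EBd2 labelled as knockouts (KO) of Skp1a. SKP1 links F-box proteins to the cullin scaffold in SCF ubiquitin ligases. The libraries labelled KO are used here only where a control change is set beside the change in the labelled KO. Polyadenylated RNA was sequenced and counted per gene. All 4 fl/fl libraries carry the floxed alleles, which the ES cells and the EBd2 compared here therefore share. The strain, sex, passage, number of clones and the use of a feeder layer were not given in the sources used here, and the growth protocol names only a standard medium for ES cells and embryoid bodies. What a lot is (a culture, a clone or a library preparation) is not said either. The p-values therefore cover the spread between libraries of a group alone, and that spread could be technical.

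Naive ES cells resemble the epiblast before implantation. Leukaemia inhibitory factor (LIF), acting through STAT3, keeps a circuit of transcription factors active that includes NANOG, ESRRB, KLF4 and TFCP2L1. When that support is withdrawn, FGF and ERK signalling helps to dismantle the circuit, and cells pass through a formative state marked by OTX2, POU3F1, FGF5 and the de novo DNA methyltransferases while POU5F1 (OCT4) is kept. ES cells are often grown on a layer of fibroblasts, whose RNA enters a bulk library and whose loss lowers matrix and contractile genes. In bulk RNA, fewer cells of a type and less RNA per cell cannot be told apart.

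Total counts were 23343471 and 21545868 in the fl/fl ES cell libraries and 7858452 and 9133497 in the fl/fl EBd2 libraries, so genes with few reads were measured less precisely on day 2. Of 36255 genes in the table, 16542 had enough counts to be tested. Libraries of a group correlated at Pearson 0.992 to 0.997 across genes on the log2 CPM scale (CPM, counts per 1000000 reads with TMM scaling; genes are not independent replicates). They still differed by more than sampling noise, with a chi-square of 2.12 to 2.81 per gene. In the fl/fl libraries Skp1a itself stood at 420.2 and 430.3 CPM before and 401 and 389 CPM after differentiation, and in those labelled KO at 369 and 361 CPM before and 286 and 289.6 CPM after. It was thus plainly present in all 8 libraries. Its small fl/fl difference of -0.11 ± 0.03 was called (adjusted p = 0.0178), but not without ES cell lot 2 or EBd2 lot 12 (adjusted p 0.0889 and 0.0922) or with lots as a block (0.158). Whether the deposited count covers the deleted part of the gene was not given in the sources used here. In the labels, the tissue field calls all 4 fl/fl libraries embryoid bodies and all 4 labelled KO libraries ES cells, so that 4 of the 8 titles disagree with it. The titles were followed, and the values of Fgf5, Otx2 and Klf4 given in later paragraphs separate the fl/fl libraries as the titles do. In the labelled KO, Fgf5 and Klf4 separate the titles too, but Otx2 does not (98.8% of its ES cell level left on day 2).

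After 2 days, 9763 of the 16542 genes tested (59%) differed between fl/fl EBd2 and fl/fl ES cells at an adjusted p below 0.05 (edgeR quasi-likelihood test, Benjamini-Hochberg), hereafter called. Of all genes tested, 28.9% were called higher and 30.1% called lower. Because the spread between libraries was small (biological coefficient of variation 3.40%), slight changes were called, and the median size of a called change was 0.60 on the log2 scale. Changes of at least 2-fold are therefore given as well: 1235 genes (7.47%) rose and 1570 (9.49%) fell by that much. These shares are the background against which the counts in each gene list can be read. The median log2 fold change of all genes was -0.02. Log2 fold changes are given as EBd2 against ES cells throughout, and a value after ± is a standard error. That error was derived from the test, as the size of the fitted change divided by the square root of its F statistic.

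**Figure D1:**
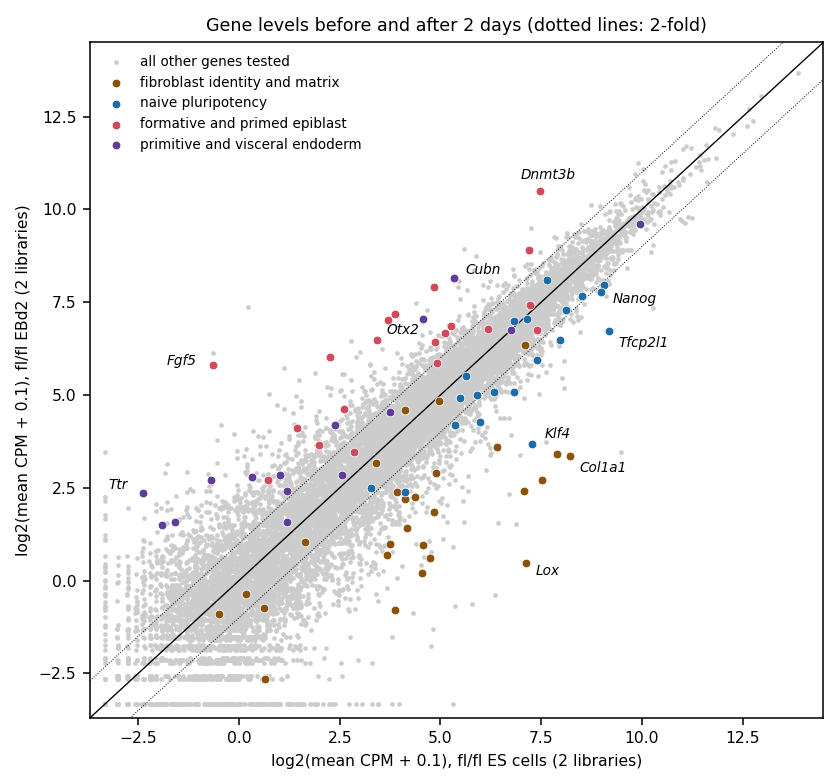
Mean level of each tested gene in fl/fl ES cells (horizontal) and fl/fl EBd2 (vertical), as log2 of CPM plus 0.1; each point is a gene, the solid line marks equal levels and the dotted lines 2-fold differences. Formative genes such as Fgf5 and Dnmt3b lie above the line, naive genes such as Klf4, Tfcp2l1 and Nanog under it, and the coloured points farthest under it are fibroblast genes such as Lox and Col1a1.

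Most of the naive pluripotency network fell, by unequal amounts. Of its 20 listed genes, all of which were tested, 16 were called lower, 11 of them by at least 2-fold, 2 were called higher and 2 were not called. The median log2 fold change was -1.15. Klf4, a Krüppel-like factor that acts downstream of STAT3 (GRCm38 chromosome 4, 55527143 to 55532466), was at 155 and 157 CPM in ES cells and 13.8 and 11.5 CPM in EBd2. Both day 2 libraries were far below both ES cell libraries, a log2 change of -3.63 ± 0.07 (adjusted p = 2.31e-11). Tfcp2l1, a second transcription factor maintained by LIF (GRCm38 chromosome 1, 118627945 to 118685168), went from 592 and 568 CPM to 114 and 97.04 CPM and fell by 2.47 ± 0.07. These were the only naive genes that lost more than 4-fold.

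Another 9 genes lost 2- to 4-fold. Nanog, the homeodomain factor at its centre (GRCm38 chromosome 6, 122707489 to 122714633), was at 499.8 and 515 CPM in ES cells and 225 and 215 CPM in EBd2. The groups did not overlap, and Nanog fell by 1.21 ± 0.05 on the log2 scale (adjusted p = 4.39e-09), leaving 43.4% of its ES cell level. Esrrb, the orphan nuclear receptor of the circuit, went from 540.1 and 527 CPM to 259 and 237 CPM and fell by 1.11 ± 0.04. Prdm14, which restrains FGF signalling and DNA methylation in naive cells, was a gene of lower counts (16.8 and 17.4 CPM against 5.40 and 4.85 CPM) and fell by 1.75 ± 0.13. Tbx3 fell by 1.77, the junction gene Jam2 by 1.70, Klf5 by 1.46, Ooep by 1.23 and Tcl1 by 1.19. Zfp57, which protects methylation at imprinted loci, changed by -1.503 and was called too.

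A last set changed less. The orphan receptor gene Nr5a2 fell by 0.91, Fgf4 by 0.85, Zfp42 (which encodes REX1, a common reporter of the naive state) by 0.83, Gbx2 by 0.80 and Dppa3 by 0.57. FGF4 is the ligand through which ES cells activate ERK in themselves. Zfp42 still stood at 162 and 150.0 CPM on day 2 against 274 and 280.1 CPM in ES cells. The 2 members left did not pass the test in either direction: Nr0b1 at -0.12 ± 0.08 (adjusted p = 0.23) and Pecam1 at -0.09 ± 0.07 (adjusted p = 0.31). Pecam1 was called lower without EBd2 lot 1 (-0.24, adjusted p = 0.00389) and stood at 0.05 without EBd2 lot 12. The metabolic enzyme gene Tdh rose by 0.44 ± 0.04, from 200.3 and 203 CPM to 284 and 262 CPM. Klf2 was called higher by only 0.16 ± 0.05 (adjusted p = 0.0197), and that call was lost without any 1 of the 4 fl/fl libraries (adjusted p 0.0629 and 0.0964 without ES cell lot 1 and lot 2, 0.0978 and 0.0869 without EBd2 lot 1 and lot 12) and with lots as a block (0.189). Among the 16 genes that fell, the level left on day 2 thus ran from 8.12% for Klf4 to 67.3% for Dppa3.

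Genes of general pluripotency, which both naive and primed cells express, did not fall as a group. Of 16 members, 9 rose and 5 fell, for a median of 0.30, and 3 fell by at least 2-fold. Pou5f1, which encodes OCT4, was at 859.8 and 879 CPM in ES cells and 839 and 828 CPM in EBd2. Its difference of -0.06 ± 0.04 was not called (adjusted p = 0.16), and neither was that of Sall4 (-0.05 ± 0.05, adjusted p = 0.41). Sall4, too, was called lower without EBd2 lot 1 (-0.14, adjusted p = 0.0165) and stood at 0.03 without EBd2 lot 12, and Pou5f1 was called lower when no filter on low counts was used (-0.09, adjusted p = 0.0473). Sox2, the partner of OCT4 on DNA, went from 549 and 551 CPM to 414 and 408 CPM and fell by 0.42 ± 0.03. The RNA-binding protein genes L1td1 and Lin28a rose by 1.14 and 0.93, and Trim28, Dppa2, Rif1, Gdf3, Trim71, Utf1 and Dppa4 rose by 0.27 to 0.49. Lin28a, which blocks maturation of let-7 miRNAs, went from 320.0 and 325 CPM to 621 and 610.3 CPM with no overlap. The members that fell by over 2-fold were Dppa5a, Tdgf1 (the Nodal co-receptor CRIPTO) and the alkaline phosphatase gene Alpl. Dppa5a lost the most CPM of these, from 2219 and 2328 CPM to 931 and 861 CPM, a fall of 1.34 ± 0.05. Tdgf1 fell by 1.23 ± 0.05, Alpl by 1.08 ± 0.05 and Zfp296 by 0.48 ± 0.08.

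Formative and primed epiblast genes rose almost throughout. Of 20 members, 19 were called higher, 15 of them by at least 2-fold, and 1 was called lower. Their median log2 fold change was 1.88. Fgf5, the growth factor that marks epiblast after implantation (GRCm38 chromosome 5, 98254184 to 98277030), was nearly silent in ES cells at 0.539 and 0.537 CPM and reached 57.1 and 54.2 CPM in EBd2. Both day 2 libraries lay about 103-fold above the ES cell libraries, a log2 change of 6.67 ± 0.19 (adjusted p = 3.45e-10). Otx2, the homeobox factor that directs enhancer use in the formative state (GRCm38 chromosome 14, 48657677 to 48673819), went from 10.8 and 10.5 CPM to 81.5 and 96.00 CPM and rose by 3.06 ± 0.09. Pou3f1 (OCT6), a POU factor of the same state, went from 13.7 and 11.97 CPM to 124 and 136 CPM and rose by 3.35 ± 0.08. In each of these genes the groups were far apart compared with the gap between libraries of a group.

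Transcription factors made up much of the rise. Sall2 went from 5.08 and 4.25 CPM to 63.96 and 65.7 CPM (3.79 ± 0.10) and the zinc finger gene Zic2 from 14.3 and 14.7 CPM to 140.5 and 152 CPM (3.33 ± 0.09). The kinase gene Pim2 rose by 3.07, Sox3 by 2.70, Foxd3 by 2.05, Lef1 by 1.71, Zic5 by 1.60 and Sox4 by 1.57. Wnt8a rose by 2.06 at low counts, from 1.62 and 1.47 CPM to 5.80 and 7.04 CPM. Lin28b, the paralogue of Lin28a, rose by 1.56. Grhl2, which opens enhancers of epithelial genes in primed cells, rose by 0.96, Cdh2 (N-cadherin) by 0.62, Sox11 by 0.60 and Tead2 by 0.22.

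**Figure D2:**
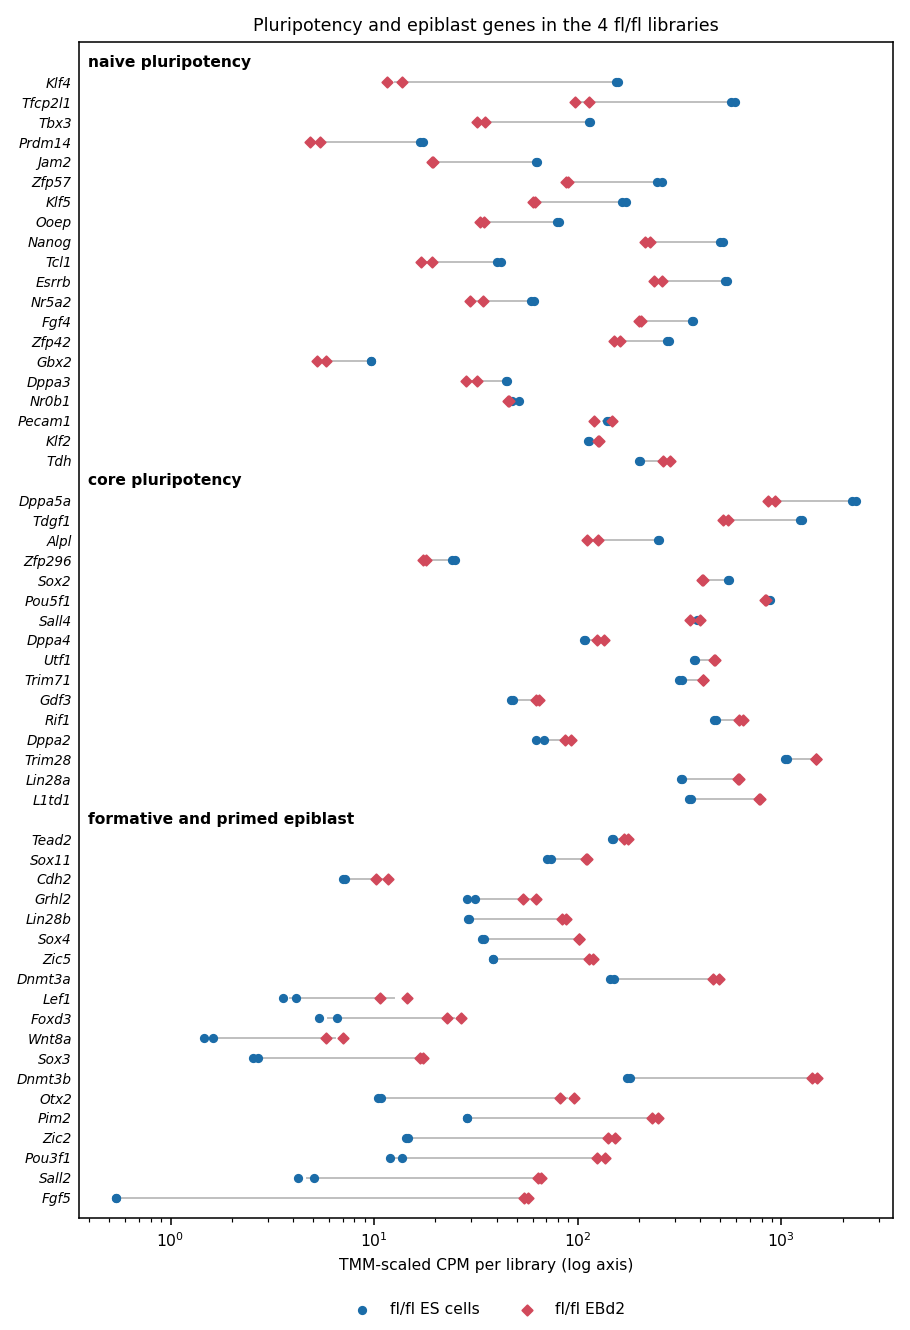
Level of naive, core and formative genes in the 2 fl/fl ES cell libraries (blue circles) and the 2 fl/fl EBd2 libraries (red diamonds), in TMM-scaled CPM on a log axis; grey lines join group means. For Klf4, Nanog and Dppa5a both diamonds lie left of both circles, for Fgf5, Otx2 and Dnmt3b both lie right of them, and for Pou5f1 they nearly coincide.

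Genes of the DNA methylation machinery changed in both directions. Of 12 listed genes 11 were tested, and all 11 were called: 5 higher and 6 lower. Dnmt3b, a de novo methyltransferase (GRCm38 chromosome 2, 153649450 to 153687730), was at 175 and 181 CPM in ES cells and 1405 and 1499 CPM in EBd2. It rose 8.15-fold (3.03 ± 0.05, adjusted p = 7.40e-12) and was among the 6 genes with the largest gain in CPM of all that rose. Dnmt3a, its partner enzyme, went from 151 and 144 CPM to 461 and 496 CPM (1.70 ± 0.04). Their catalytically inactive cofactor Dnmt3l fell by 0.55 ± 0.04, and the maintenance genes Dnmt1 and Uhrf1 fell by 0.15 and 0.16. Among the TET genes, whose enzymes oxidise methylcytosine, Tet2 fell most (187 and 179 CPM against 51.8 and 59.8 CPM, -1.71 ± 0.06) and Tet1 fell by 0.81 ± 0.04. Tet3 rose by 1.08 ± 0.11, from 13.7 and 10.9 CPM to 25.2 and 26.8 CPM. The glycosylase gene Tdg rose by 0.53 and the chromatin remodeller gene Hells by 0.24. Transcripts were measured here, and methylation was not.

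Fibroblast genes were among the steepest falls. Of 30 fibroblast identity and matrix genes, 27 were tested, and Lum, Dpt and Meox2 were too low to test. Of the 27, 21 were called lower, 20 of them by at least 2-fold, 1 was called higher and 5 were not called. The median log2 fold change was -2.81, and the median tested member kept 14.2% of its ES cell level. None of the tested members was at 0 counts in EBd2. Summed over the list, TMM-scaled CPM was 1563 and 1486 in the ES cell libraries and 231 and 225 in the EBd2 libraries. A sum over genes of unequal length gives long transcripts more weight.

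Fibrillar collagens kept little of their ES cell level. Col1a1, the main collagen of connective tissue (GRCm38 chromosome 11, 94936224 to 94953042), was at 309 and 283 CPM in ES cells and 9.72 and 10.5 CPM in EBd2. It fell by 4.87 ± 0.12 (adjusted p = 9.19e-11), which left 3.41%. Col1a2 kept 3.87%, Col3a1 5.42% and Col5a2 4.54%. The matrix genes Bgn, Postn and Fbln2 kept 3.46%, 3.30% and 4.40%. Lox, which crosslinks collagen, went from 142 and 139 CPM to 1.89 and 0.692 CPM and kept 0.921%. Transcription factors of mesenchyme fell too: Prrx1 from 23.5 and 23.9 CPM to 1.75 and 1.96 CPM (-3.66 ± 0.15), and Osr1 from 62 counts to 1, 23.3 times lower by ratio (95% counting interval 4.03 to 936). Twist2 was called lower (-1.51 ± 0.45, adjusted p = 0.014), but not without EBd2 lot 12 (adjusted p 0.0847), with lots as a block (0.112), by DESeq2 (0.0877) or after thinning all libraries to one depth (0.0503).

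Some genes that mark fibroblasts did not follow the collagens. Thy1, a surface marker of fibroblasts, rose by 0.48 ± 0.09, from 17.5 and 17.2 CPM to 22.5 and 25.8 CPM. Pdgfra was at 9.75 and 11.1 CPM in ES cells and 7.83 and 10.04 CPM in EBd2 (adjusted p = 0.23), and Mmp2 at 31.4 and 30.7 CPM and 29.4 and 27.2 CPM (adjusted p = 0.14). Both genes are also expressed in early embryonic cell types. The small proteoglycan gene Dcn, a fibroblast marker, was already low in ES cells (1.12 and 0.928 CPM) and was not called, and neither were Fap and Tbx15. Fstl1 fell by only 0.74 ± 0.05, and Pdgfrb by 2.83 ± 0.22. So the listed fibroblast genes spread from 0.921% left for Lox to 139% for Thy1.

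Contractile and serum response genes, which fibroblasts express highly but ES cells express too, fell less at the median. Of 19 members 15 were called lower, 10 by at least 2-fold, and 2 were called higher, with a median of -1.20. Their summed CPM went from 2849 and 2779 to 1509 and 1518. Acta2, smooth muscle actin, was at 56.9 and 52.8 CPM in ES cells and 0.405 and 0.692 CPM in EBd2 and fell by 6.60 ± 0.18. The secreted matrix protein gene Thbs1 went from 739.8 and 696 CPM to 12.95 and 8.88 CPM (-6.06 ± 0.11), and the log2 change of Tagln, another smooth muscle gene, was -3.18. With predicted genes, clone names and pseudogenes left out, the 12 largest falls outside the marker and Hox lists at 5 CPM or more included matrix, caveolar and adhesion genes. Cavin2 had 281 counts over both ES cell libraries and 0 in EBd2, which is at least 35.2-fold lower when 3 counts are taken as the floor over the group. The log2 changes were -6.89 ± 0.19 for Col12a1, -6.46 ± 0.25 for Cav1, -5.75 ± 0.30 for Vcam1, -5.48 ± 0.24 for Ccdc80, -4.46 ± 0.20 for Emp1 and -4.43 ± 0.12 for Tnc, all called. Col8a1, Itga11 and Prl2c3 had 1161, 415 and 249 counts in ES cells and 3, 2 and 1 in EBd2. For Col8a1 that is a ratio of 146 (95% counting interval 49.7 to 707), for Itga11 78.1 (21.5 to 647) and for Prl2c3 93.7 (16.7 to 3715). Prl2c3 has near-identical copies among which reads may have been split.

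The falls were also sorted by size. Tested members numbered 27 for fibroblast, 19 contractile, 29 Hox, 20 naive, 16 core pluripotency, 14 LIF and 23 glycolysis and hypoxia genes. Of all genes tested, 9.49% fell at least 2-fold. Among the 177 of 16542 genes that fell by at least 16-fold were 9 fibroblast, 3 contractile and 2 Hox genes. No naive or core pluripotency gene was among them. So few genes fell that far that lists of 20 and 16 members could lack one by the background alone. Among 477 genes that fell 4- to 16-fold were 7 fibroblast, 5 contractile and 8 Hox genes, 3 genes of the LIF pathway and the naive genes Klf4 and Tfcp2l1. Among 916 genes that fell 2- to 4-fold were 9 naive, 3 core pluripotency and 9 glycolysis and hypoxia genes beside 4 fibroblast genes. The 1570 genes that fell at least 2-fold lost 35274 CPM between them. Listed fibroblast genes made up 3.52% of that loss and contractile genes 3.87%, against 4.72% for naive, 6.29% for core pluripotency and 13.6% for glycolysis and hypoxia genes. Junction and EMT genes, with Vim and Fn1 among them, made up 4.14%. Each share depends on the length of the list and the level of its genes. Col12a1, Tnc, Col8a1, Cav1 and Vcam1 are not in the fibroblast list, so its share does not measure the loss of fibroblast RNA.

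The names of genes help only so far in telling the falls apart. NANOG, ESRRB, TFCP2L1, PRDM14, ZFP42 and DPPA5A are made by pluripotent or germ cells and not by fibroblasts, as background. Their genes kept 43.4%, 46.4%, 18.2%, 29.9%, 56.3% and 39.4% of the ES cell level. Klf4, Socs3, Vim, Fn1, glycolysis genes and Hox genes are expressed by fibroblasts as well as by other cells. Vim, the intermediate filament gene of mesenchyme, went from 267 and 266 CPM to 36.6 and 36.3 CPM (-2.87 ± 0.06), and Fn1, fibronectin, from 2091 and 2009.8 CPM to 797 and 851 CPM (-1.31 ± 0.05). For these genes loss from ES cells and loss of fibroblast RNA cannot be told apart in bulk counts. The part of fibroblast RNA in the other falls was not tested. When the libraries were scaled without the fibroblast, contractile and Hox genes, none of the named genes changed its call or direction. That scaling removes no fibroblast reads from the counts of a gene, so it cannot show their part in its fall.

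In the libraries labelled KO most fibroblast genes stood higher on day 2, as a share of their ES cell level, than in fl/fl. Their summed CPM was 1723 and 1866 in ES cells labelled KO and 774 and 695 in EBd2 labelled KO. The median tested member stood at 52.4%, against 14.2% in fl/fl. In the labelled KO 16 of the 27 genes were called lower and 4 higher, where 33.1% and 31.7% of all genes were. Col6a3 was among the 4 and stood at 144% of its ES cell level, so the shares include rises as well as levels kept. Of the 27 genes, 20 had a change in the labelled KO above that in fl/fl and 1 below it by the interaction test, which called 22.4% of all genes above and 25.7% below, or 48% in either direction. Col1a1 kept 19.3% in the labelled KO against 3.41% in fl/fl, a difference of 2.49 ± 0.17 in log2 change (adjusted p = 5.47e-07). Naive genes also stood higher at the median, 67.8% against 45.2%, and 13 of the 20 had a change above that in fl/fl and 4 below. Within the labelled KO, 13 of the 20 naive genes were called lower and 5 higher. Both medians were thus higher in the labelled KO, and the part of fibroblast RNA in the genotype difference was not tested.

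**Figure D3:**
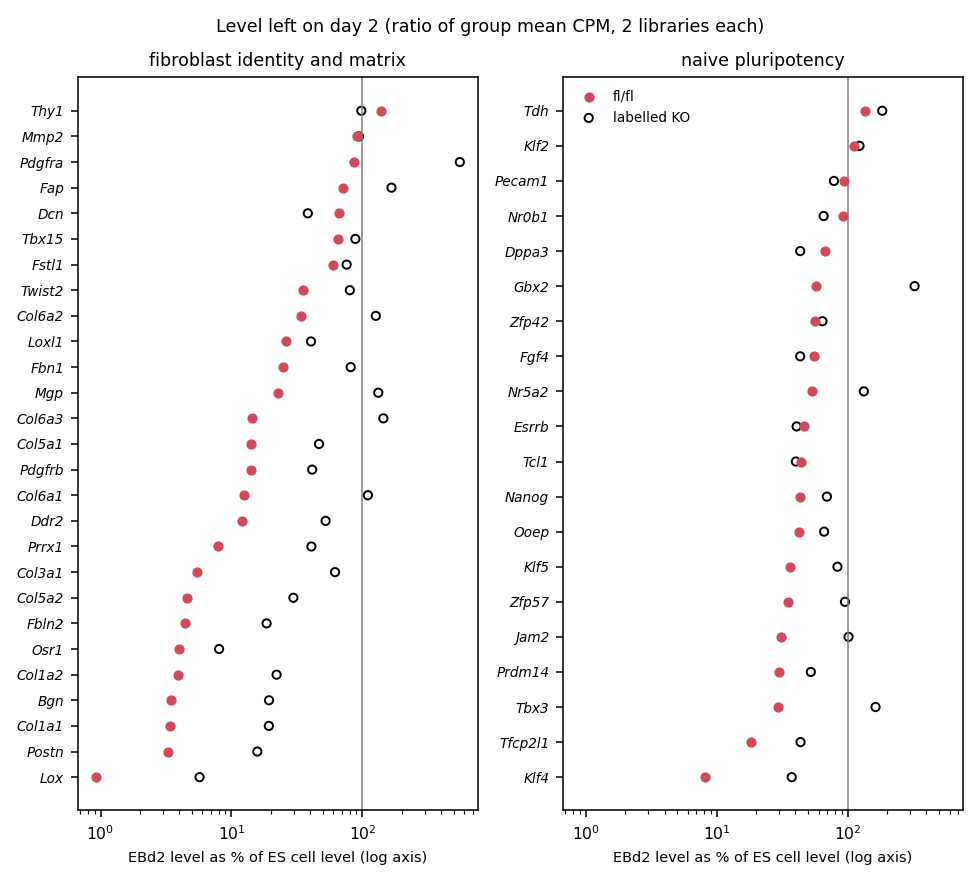
EBd2 level as a percentage of the ES cell level (log axis; 100 marks no change) for the tested fibroblast genes (left) and the naive genes (right), as ratios of group means of 2 libraries in fl/fl (red) and in the labelled KO (open circles). In fl/fl the fibroblast genes reach down to 0.921% for Lox with a median of 14.2%, while no naive gene but Klf4 sits under 18%.

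Markers of other cell types were low or uneven. Of 8 macrophage genes 5 were tested and 3 were called lower, with summed CPM of 32.2 and 36.6 in ES cells and 13.9 and 15.0 in EBd2. Lyz2 fell by 3.31 ± 0.24 and Cd68 by 1.07 ± 0.12. Adgre1, the F4/80 antigen, had only 39 counts over both ES cell libraries and 0 in EBd2. That is at least 4.89-fold lower with 3 counts as the floor over the group. Of 6 endothelial genes tested 3 were called higher and 1 lower. Tek rose by 1.29 ± 0.12 and Egfl7 by 0.36 ± 0.09. The call of Cdh5 (1.13 ± 0.43) was lost without ES cell lot 1 or lot 2 (adjusted p 0.115 and 0.0794), without EBd2 lot 12 (0.751), and that of Esam (-1.19 ± 0.44) without ES cell lot 2 (0.217) or EBd2 lot 12 (0.269). Both calls were also lost without either labelled KO EBd2 library, with lots as a block (0.138 for Cdh5, 0.233 for Esam), by DESeq2 (0.0755 and 0.0675) and after thinning (0.859 and 0.0691). Of 7 keratinocyte and epithelial genes tested 3 were called lower, Krt17 by 1.71, Krt19 by 0.99 and Sfn by 0.95.

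Most genes of the LIF and STAT3 pathway fell, receptors and targets alike. All 14 listed genes were tested, 12 were called lower, 6 by at least 2-fold, and none was called higher, with a median of -0.94. At the receptor, Lifr was at 95.1 and 95.1 CPM in ES cells and 47.4 and 43.8 CPM in EBd2 (-1.06 ± 0.06), and Il6st, which encodes the shared subunit gp130, fell by 0.39 ± 0.05. Stat3, the transcription factor of the pathway, went from 85.5 and 91.2 CPM to 33.9 and 37.3 CPM (-1.31 ± 0.06). Socs3, the feedback inhibitor that STAT3 induces (GRCm38 chromosome 11, 117966079 to 117970047), went from 128 and 125 CPM to 9.58 and 11.1 CPM. That was the largest fall of the list at -3.60 ± 0.07 (adjusted p = 3.17e-11), leaving 8.18%, much like Klf4 at 8.12%. The kinase genes Pim3 and Pim1, also STAT3 targets, fell by 1.40 and 0.93. Osmr, the receptor of a related cytokine that fibroblasts also carry, went from 4.90 and 5.91 CPM to 0.810 and 0.577 CPM.

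The promoter of Socs3 is shown because this gene fell most in the pathway and its promoter carries the palindrome that STAT dimers bind. All 14 genes had a promoter in the RefSeq set (GRCm38.p6, 250 bases before to 50 after the start). The letters TTCNNNGAA, searched on both strands, were found in 2 of them (14.3%), Socs3 and Cish, and in 9.55% of all 27025 genes. The Socs3 window is chr11:117969317-117969616 on the minus strand, 5′ to 3′, with the match in capitals.
Socs3: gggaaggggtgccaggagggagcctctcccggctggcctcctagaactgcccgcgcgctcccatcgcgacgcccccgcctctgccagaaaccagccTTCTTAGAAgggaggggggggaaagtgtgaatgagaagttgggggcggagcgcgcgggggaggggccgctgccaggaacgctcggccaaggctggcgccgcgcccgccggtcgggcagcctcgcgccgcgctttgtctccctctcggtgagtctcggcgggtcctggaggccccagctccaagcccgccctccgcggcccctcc
The match begins 154 bases before the RefSeq start, which lies inside the GENCODE span given above. It describes the letters in this window and shows no binding.

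FGF and ERK feedback genes were divided. Of 19 genes 9 rose and 6 fell, for a median of 0.20, and 4 rose by at least 2-fold. The transcription factor gene Etv1 went from 7.95 and 8.40 CPM to 26.6 and 24.8 CPM and rose by 1.65 ± 0.10. The ERK phosphatase genes Dusp4 and Dusp6 rose by 1.33 and 1.22, and the receptor antagonist gene Il17rd by 1.19. Dusp6, a common transcript readout of ERK activity, was at 45.1 and 44.7 CPM in ES cells and 95.4 and 114 CPM in EBd2. Etv4, of the same family as Etv1, fell by 0.91 ± 0.06, so the targets did not move as a block.

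More Nodal pathway genes rose than fell. Of 15 genes 7 rose and 4 fell, for a median of 0.29. Nodal, the ligand, went from 42.04 and 44.02 CPM to 66.7 and 66.6 CPM (0.63 ± 0.06), and Foxh1, the transcription factor that directs SMAD proteins to Nodal targets, rose by 0.90 ± 0.07. The feedback antagonist Lefty1 went from 115 and 113 CPM to 317 and 276 CPM (1.38 ± 0.05). Lefty2, a second antagonist, rose by 1.15. Pcsk6, a protease that can mature the ligand, fell by 1.29 ± 0.07, and the co-receptor gene Tdgf1 had fallen by 1.23, as given above. Ligand and antagonists rose while these modifiers fell.

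BMP and Wnt genes changed in both directions. Of 15 BMP and Id genes 6 rose and 3 fell, for a median of -0.01. The ligand gene Bmp4 went from 13.9 and 14.4 CPM to 3.37 and 2.54 CPM and fell by 2.27 ± 0.14, Bmp7 by 0.84 ± 0.11 and the inhibitory Smad6 by 1.06 ± 0.11. Another ligand gene of the list was called higher, so the BMP ligand genes changed in both directions. Id3, a target of BMP signalling, rose by 1.03 ± 0.11. Of 13 Wnt feedback and TCF genes 8 rose and 2 fell, for a median of 0.30. Tcf7l1, the repressor that limits naive genes, went from 71.9 and 74.4 CPM to 159 and 159 CPM (1.12 ± 0.05). Tcf7 and Ccnd1 rose by 0.30 and 0.39, and the secreted inhibitor gene Notum by 1.98 at low counts.

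**Figure D4:**
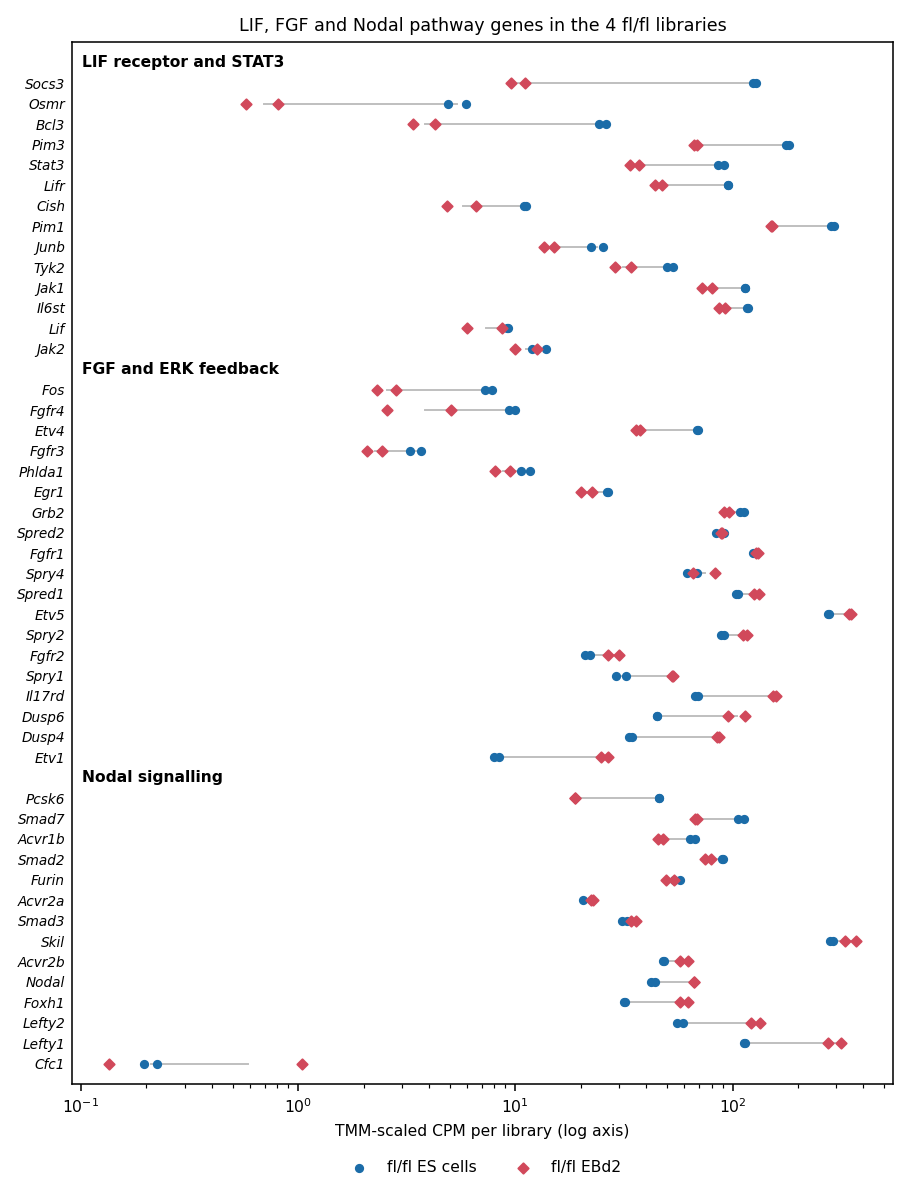
Level of tested LIF, FGF and Nodal pathway genes in the 2 fl/fl ES cell libraries (blue circles) and 2 fl/fl EBd2 libraries (red diamonds), in TMM-scaled CPM on a log axis; grey lines join group means. The diamonds of Socs3, Stat3 and Lifr lie left of the circles, and those of Etv1, Dusp6 and Lefty1 lie right of them.

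Lineage genes were mostly low on day 2, with endoderm as the clearest rise. Of 15 genes of primitive and visceral endoderm, the extraembryonic layer that nourishes the epiblast, 11 were called higher, 10 by at least 2-fold, and 1, Apoe, was called lower. The median was 1.85. Cubn, an endocytic receptor of visceral endoderm, was at 42.7 and 37.8 CPM in ES cells and 267 and 306 CPM in EBd2 (2.83 ± 0.07), and the adaptor gene Dab2 at 23.4 and 23.99 CPM and 132 and 134 CPM (2.49 ± 0.05). Amn, which encodes the partner of cubilin, rose by 1.83 ± 0.10. Transcription factors rose from low levels: Hnf4a from 0.539 and 0.489 CPM to 6.34 and 6.58 CPM (3.63 ± 0.23), and Foxa2 by 3.59 ± 0.36. The transport protein gene Ttr went from 0.135 and 0.0489 CPM to 5.26 and 4.85 CPM. Gata4 rose by 0.78 ± 0.12, while Gata6, the factor that specifies primitive endoderm, was at 5.79 and 5.72 CPM and 6.61 and 7.62 CPM and was not called (adjusted p = 0.0903).

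The largest rises included an endoderm gene outside the list. Predicted genes, clone names and pseudogenes were left out of this ranking. Among the 12 called genes with the largest log2 rise at 5 CPM or more, Apob, the lipoprotein of yolk sac endoderm and liver, went from 0.404 and 0.684 CPM to 66.1 and 74.1 CPM (7.01 ± 0.13). Fgf5 and Ttr were also among them, with Muc13 (5.48 ± 0.37), Bcl11a (4.84 ± 0.21), Vrtn (4.66 ± 0.13), Prss12 (4.58 ± 0.28) and Cyp26a1 (4.52 ± 0.21). Cyp26a1 degrades retinoic acid, and Vrtn is a regulator of vertebral number. The others were Ror1 (4.21 ± 0.19), Spink1 (4.03 ± 0.28), Pdzrn4 (4.02 ± 0.35) and Clic6 (3.95 ± 0.13). ROR1 is a receptor for Wnt ligands.

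Primitive streak and mesoderm genes gave no common direction. Of 14 streak and mesendoderm genes tested 4 rose and 5 fell, for a median of 0.03. T (brachyury), the streak marker, had a log2 difference of 1.04 and was not called (adjusted p = 0.0631). It was called without ES cell lot 2 (1.44, adjusted p = 0.0401) and without EBd2 lot 1 (1.46, adjusted p = 0.0259), and had an adjusted p of 0.245 without ES cell lot 1 and 0.746 without EBd2 lot 12, so its call turns on single libraries of low counts. Mixl1 rose by 1.98 ± 0.42 to 1.75 and 1.27 CPM, and Lhx1, which acts in anterior visceral endoderm and mesendoderm, by 4.45 ± 0.61 to 3.78 and 4.73 CPM. Eomes was at 13.03 and 12.9 CPM in ES cells and 15.9 and 14.2 CPM in EBd2 and was not called. Cdx1 fell from 7.14 and 6.20 CPM to 0.270 and 0.231 CPM (-4.70 ± 0.35), Sp5 from 55 counts to 2 (ES cells to EBd2 ratio 10.3, 95% counting interval 2.73 to 87.6) and Fgf17 by 1.28 ± 0.13. CDX1 and SP5 are known targets of Wnt signalling. Of 9 early mesoderm genes tested 4 were called higher and 2 lower. Etv2, which initiates the endothelial and blood lineages, went from 0.359 and 0.342 CPM to 6.21 and 4.15 CPM, and Lmo2, Kdr and Tal1 rose by 3.31, 2.55 and 1.84, all at or under 6.48 CPM.

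Other lineages gave few large changes. Of 10 neuroectoderm genes tested 3 were called higher and 2 lower. Pax6 rose by 1.69 ± 0.24, from 2.43 and 2.003 CPM to 8.23 and 6.23 CPM, and Nes by 0.66, while Ncam1 and Msi1 fell by 1.17 and 0.61. Sox1, the earliest neural marker, was at 2.83 and 3.18 CPM and 2.56 and 3 CPM and was not called. Of 12 trophectoderm genes 3 were called higher and 6 lower. Cdx2 was at 0.135 and 0.244 CPM and 0.405 and 0.577 CPM and was not called (adjusted p = 0.0864), Esx1 fell by 2.01 ± 0.13, Tead4 by 0.92 ± 0.09 and Tfap2c by 0.45 ± 0.05, and the keratin gene Krt18 rose by 0.72 ± 0.05. Of 12 two-cell-like genes tested, which mark a rare totipotent-like state, 1 was called in each direction, at counts too low for a stable call. Zscan4e was called higher (1.25 ± 0.31), but not without EBd2 lot 1 (adjusted p 0.0586) or after thinning (0.0561), and members of that family have near-identical copies. Zfp352, called lower, had 11 counts in ES cells and 0 in EBd2, and its call was lost without any 1 of the 8 libraries.

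More germline genes fell than rose. Of 19 tested 11 were called lower, 6 by at least 2-fold, and 1 was called higher, with a median of -0.72. Smc1b, a meiotic cohesin gene, went from 41.1 and 41.5 CPM to 10.8 and 11.3 CPM (-1.90 ± 0.08). Stra8, which starts meiosis, went from 11.9 and 12.4 CPM to 1.62 and 2.08 CPM (-2.70 ± 0.18). Ddx4, the RNA helicase of germ cells, fell by 1.28 ± 0.07, and Hormad1, a protein of meiotic chromosome axes, by 1.03 ± 0.11. In libraries labelled KO the list had a median of 0.62, with 12 called higher and 3 lower, and 14 members had a change above that in fl/fl. The interaction test called 22.4% of all genes above and 25.7% below. Of all genes 64.8% were called in the labelled KO, 31.7% higher and 33.1% lower.

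The promoters of Ddx4 and Hormad1 are shown because many promoters of this list hold the E-box letters CACGTG. All 20 listed genes had a RefSeq promoter of the same window (GRCm38.p6). CACGTG, a palindrome read the same on both strands, was in 10 of them (50%) against 8.09% of all genes. The letters TCCCGC, found in sites of E2F6 and searched on both strands, were in 9 of them (45.0%) against 22.1% of all genes. Stra8 and Smc1b, the largest called falls of the list, were not among the 10 genes with CACGTG. The capitals mark CACGTG, which starts 29 bases before the start in Ddx4 (chr13:112652261-112652560, minus strand) and 57 and 20 bases before it in Hormad1 (chr3:95559427-95559726, plus strand).
Ddx4: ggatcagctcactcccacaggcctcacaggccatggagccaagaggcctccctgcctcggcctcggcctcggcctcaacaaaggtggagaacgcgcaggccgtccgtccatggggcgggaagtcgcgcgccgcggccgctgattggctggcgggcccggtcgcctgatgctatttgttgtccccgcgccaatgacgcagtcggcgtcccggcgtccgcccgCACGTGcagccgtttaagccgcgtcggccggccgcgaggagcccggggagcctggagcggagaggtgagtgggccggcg
Hormad1: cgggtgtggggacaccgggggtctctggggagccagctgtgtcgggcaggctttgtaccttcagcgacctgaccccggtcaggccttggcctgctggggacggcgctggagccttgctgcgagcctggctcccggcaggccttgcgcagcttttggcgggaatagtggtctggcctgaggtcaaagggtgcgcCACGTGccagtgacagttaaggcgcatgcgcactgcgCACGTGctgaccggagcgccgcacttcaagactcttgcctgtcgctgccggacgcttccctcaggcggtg
Sycp3, the 1 germline gene called higher (0.23 ± 0.08), holds CACGTG too, but its call was lost without ES cell lot 1 or lot 2 or EBd2 lot 1 (adjusted p 0.0693, 0.0636 and 0.142), with lots as a block (0.0517), by DESeq2 (0.139) and with no filter on low counts (0.102).

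Glycolysis and hypoxia genes fell together and made up a larger share of the CPM lost by genes falling at least 2-fold than any other list. Of 23 genes 20 were called lower, 10 by at least 2-fold, and none was called higher, with a median of -0.88. Slc2a3, a glucose transporter, was at 2423 and 2452 CPM in ES cells and 849 and 884 CPM in EBd2 (-1.49 ± 0.04). Of the enzymes, Gpi1 fell by 1.20 ± 0.03, Pfkp by 1.33 ± 0.04 and Aldoa by 0.88 ± 0.05. P4ha1, a collagen prolyl hydroxylase that hypoxia induces, went from 197 and 196 CPM to 46.96 and 51.5 CPM (-1.99 ± 0.06). It acts on collagen, which fibroblasts make, and the part of fibroblast RNA in its fall was not tested. In libraries labelled KO all 23 genes were called lower, with a median of -1.13.

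The P4ha1 promoter is shown as an example of the hypoxia response core ACGTG in this list. Of the 23 genes 21 had a RefSeq promoter, and 15 of these (71.4%) held ACGTG on either strand against 21.8% of all genes. Aldoa was among the 15, but Slc2a3, Gpi1 and Pfkp were not. The core lies inside the E-box CACGTG, so each match of the E-box is counted here as well. In the window of P4ha1 (chr10:59323046-59323345, plus strand) the match starts 16 bases before the start and reads CACGT on the strand shown.
P4ha1: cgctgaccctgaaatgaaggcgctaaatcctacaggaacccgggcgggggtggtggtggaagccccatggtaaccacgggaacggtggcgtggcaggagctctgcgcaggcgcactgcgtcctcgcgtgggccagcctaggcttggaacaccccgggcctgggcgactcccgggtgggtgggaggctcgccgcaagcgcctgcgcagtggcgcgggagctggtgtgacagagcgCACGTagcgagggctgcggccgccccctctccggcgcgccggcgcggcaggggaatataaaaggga
Whether the factor that binds these letters was active was not measured.

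Cholesterol synthesis genes rose modestly. Of 23 genes 18 were called higher, 4 by at least 2-fold, and 3 were called lower, with a median of 0.46. Sqle, squalene epoxidase, went from 123 and 126 CPM to 268 and 278 CPM (1.14 ± 0.04) and Fdps, farnesyl diphosphate synthase, rose by 1.01 ± 0.03. The direction was opposite in the labelled KO, with 19 genes called lower, 3 higher and a median of -0.81.

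Cell cycle lists moved by small amounts at the median. Of 18 G2/M genes 16 were called lower, but none by 2-fold, with a median of -0.33. Top2a fell by 0.76 ± 0.04, Ccnb2 by 0.65 ± 0.04, Aurkb by 0.66 ± 0.05 and Bub1b by 0.55 ± 0.04. Of 20 G1/S and E2F genes 7 were called higher and 11 lower. Cyclin D1 rose, as given above, but the other D-type cyclins fell: Ccnd2 went from 59.3 and 56.7 CPM to 12.8 and 13.7 CPM (-2.12 ± 0.08) and Ccnd3 from 243 and 249 CPM to 82.7 and 76.3 CPM (-1.63 ± 0.05), while E2f1 and Rrm2 fell by 0.89 and 0.62. Of 13 genes for PRC2, the Polycomb complex that methylates histone H3 at lysine 27, 9 were called lower and 3 higher, none by 2-fold. Its core subunit genes Suz12 and Ezh2 fell by 0.53 and 0.49.

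Junction and EMT genes divided largely by kind. Of 16 genes 6 were called higher and 6 lower, with 4 falling by at least 2-fold, Vim and Fn1 among them. Most of those called higher were epithelial genes, and most of those called lower were mesenchymal or EMT genes. Cdh2, which rose, and Cldn4, which fell, went the other way. Cldn4 fell by 0.98 ± 0.04, while Cldn6 rose by 0.56 ± 0.04. Integrated stress response genes were lower in 8 and higher in 4 of 14, with Asns falling by 1.06 ± 0.05, Cth by 0.83 ± 0.05 and Psat1 by 0.60 ± 0.03 and Sesn2 rising by 0.68 ± 0.05. Of 14 p53 targets 6 were called lower and 2 higher. Gdf15 fell by 2.05 ± 0.20 and Eda2r by 0.74 ± 0.04, while Bax and Pmaip1 rose by 0.47 and 0.51. Of 87 ribosomal protein genes 42 were called lower and 11 higher, with a median of -0.11. Of 13 mitochondrially encoded genes 11 were called higher, with a median of 0.68, and their share of counts was 1.73% to 1.76% in ES cells and 2.28% to 2.70% in EBd2.

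By CPM rather than fold, the largest changes included abundant genes of protein synthesis and folding. Among the 6 largest losses were Eef1a1 (-0.20 ± 0.04), Hsp90aa1 (-0.37 ± 0.04) and Eef2 (-0.37 ± 0.03), beside Slc2a3, Aldoa and Dppa5a. Among the 6 largest gains were Ncl, nucleolin (0.61 ± 0.04), Hspa8 (0.38 ± 0.03) and Dnmt3b, with 3 mitochondrially encoded transcripts. Eef1a1, Eef2, Hsp90aa1, Aldoa, Ncl and Hspa8 each changed by less than 2-fold.

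Hox genes, the positional regulators of the body axis, were low throughout, and most of those called fell. Of 39 genes 29 were tested, 14 were called lower, 13 by at least 2-fold, and 1, Hoxb1, was called higher, with a median of -1.85. Their summed CPM was 27.4 and 30.0 in ES cells and 10.1 and 11.7 in EBd2. Hoxb9 went from 3.28 and 3.37 CPM to 0.135 and 0.462 CPM (-3.39 ± 0.36). Hoxc10, with 27 counts in ES cells, and Hoxa13, with 24, had 0 counts in EBd2, at least 3.39-fold and 3.01-fold lower with 3 counts as the floor over the group. At such low counts the number of Hox genes called lower depended on the fit, from 3 to 15. Fibroblasts carry the Hox code of their site of origin, as background, and both sums were lower on day 2 in fl/fl cells. In the labelled KO the list went the other way, with a median of 1.10, 15 called higher and none lower, and summed CPM of 32.8 and 33.4 in ES cells and 88.3 and 92.9 in EBd2. Fibroblast sums were lower on day 2 there as well, at 1723 and 1866 CPM in ES cells and 774 and 695 CPM in EBd2. The part of fibroblast RNA in the fl/fl Hox falls was not tested.

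**Figure D5:**
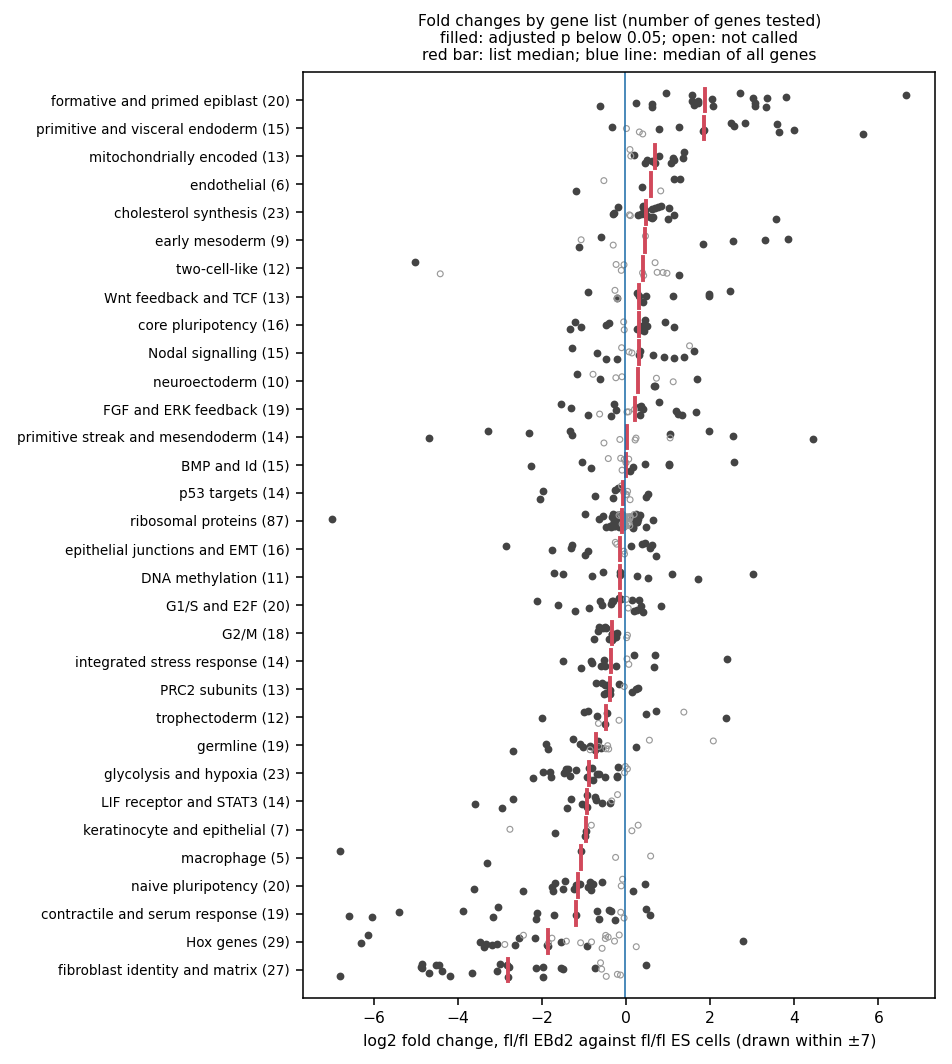
Log2 fold change of each tested gene, fl/fl EBd2 against fl/fl ES cells, by gene list with the number tested; filled points were called, open points were not, red bars are list medians and the blue line is the median of all genes. Formative (1.88) and endoderm (1.85) medians stand at the top, and the fibroblast (-2.81), Hox (-1.85) and contractile (-1.20) medians at the bottom.

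The control changes overlapped with those in the labelled KO only in part. Of 1570 genes that fell at least 2-fold in fl/fl, 578 also fell at least 2-fold in the labelled KO and 83 rose by that much, where 8.02% and 11.6% of all genes did so. Of 1235 genes that rose at least 2-fold in fl/fl, 584 also rose and 30 fell in the labelled KO. The formative list, with a median of 1.88 in fl/fl, had 0.65 in the labelled KO, and 15 of its 20 genes had a change below that in fl/fl by the interaction test. Otx2 changed by -0.02 in the labelled KO (adjusted p = 0.9) against 3.06 in fl/fl, a difference of -3.08 ± 0.16 (adjusted p = 7.44e-08). Dnmt3b rose by 0.82 there against 3.03. The endoderm list had a higher median in the labelled KO, 3.64 against 1.85, and 11 of its 15 genes had a change above that in fl/fl. Of all genes, the interaction test called 22.4% above and 25.7% below.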

How the data were processed

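Polyadenylated RNA of 8 mouse libraries in 4 groups of 2 was sequenced, and the authors deposited 1 table of raw read counts per gene. Per the submitters' processing notes, trimming was by Trim Galore 0.6.7, with GRCm38 and mm10 as the builds named. Aligner, counter, annotation and strand setting were not given in the sources used here, so overlapping and near-identical genes are uncertain. Groups follow the sample titles. The deposited counts were fitted as they stand, all 8 libraries with 4 group means, by edgeR 4.0.16 (R 4.3.3; TMM scaling, filterByExpr, quasi-likelihood test), with p-values adjusted by Benjamini-Hochberg over 16542 genes. Using all groups gives the spread 4 residual degrees of freedom. CPM values are TMM-scaled counts per 1000000 reads. A gene is called at an adjusted p below 0.05. The difference between genotypes is the interaction contrast of the same fit. The fit was tested on simulated data first. A count of 0 was bounded with a floor of 3 counts over the group, and ratios with 1 to 3 counts carry exact 95% intervals, which cover counting error only.

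The members and gene lists were chosen with earlier results of these data known. Named genes are all members of the naive, core, formative, DNA methylation and fibroblast lists, with Skp1a, T, Gata6, Sox1 and Cdx2. To these the rule adds the 12 largest rises, the 12 largest falls, and the 12 largest falls outside the marker and Hox lists, each at 5 CPM or more in the higher group with no overlap. It also adds the 6 largest CPM changes in each direction and up to 4 called members of each other list with the smallest p. Predicted genes, clone names and pseudogenes were left out of the largest changes. Outside this rule, Lifr, Il6st, Osmr, Nodal, Foxh1, Etv4, Gata4, Foxa2, Mixl1, Eomes, Apoe, Hoxb1, Hoxa13 and Sycp3 were chosen after their values were seen. Some genes that the rule names are not reported here, but they stay in the counts and medians of their lists. Gene positions are from GENCODE vM21 (GRCm38), and promoters from RefSeq (GRCm38.p6).

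Lot numbers were checked as possible pairs. The fl/fl groups share only lot 1, whose deviations from the group means correlated at -0.0036 across genes between fl/fl ES cells and EBd2. Over the 6 pairs of groups this ran from -0.123 to 0.131, the highest for fl/fl EBd2 and labelled KO ES cells, which share lots 1 and 12. It was -0.0045 for fl/fl ES cells and labelled KO EBd2, which share lots 1 and 2. So the lots were not treated as pairing the libraries. The alternatives were RLE scaling, library size alone, scaling without fibroblast, contractile and Hox genes, 2 other filters, the 4 fl/fl libraries alone, lots as a block, DESeq2 1.42.0, thinning of all libraries to 7858452 counts, a test beyond 1.5-fold and leaving out each library. Figures were drawn with matplotlib.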

Additional observations from a re-analysis of the deposited data

Results flagged for a closer look

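For the genes named here the change to day 2 had opposite signs in fl/fl cells and in cells labelled KO, was called and at least 0.5 in size in both, and differed by the interaction test of edgeR (adjusted p at most 0.00428, for Zfp352). The differences given are the change in the labelled KO minus the change in fl/fl on the log2 scale. Among naive genes, Tbx3 differed by 2.48 (-1.77 in fl/fl, 0.71 in the labelled KO) and Gbx2 by 2.50 (-0.80 and 1.70). Among formative genes, Zic5 differed by -2.82 (1.60 and -1.22) and Sox11 by -1.34 (0.60 and -0.74).

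The Wnt targets Sp5 and Cdx1 differed by 7.97 and 6.55, falling in fl/fl and rising in the labelled KO. Sp5 had only 2 counts in fl/fl EBd2 (ratio of ES cells to EBd2 10.3, 95% counting interval 2.73 to 87.6), so its difference is no firm size. The Hox genes Hoxb9 and Hoxc10 differed by 4.54 and 9.42 in the same sense, and the germline gene Hormad1 by 1.66. The value of Hoxc10, like that of the two-cell-like gene Zfp352 (7.74), rests on 0 counts in fl/fl EBd2 and is no measure of size. Cdx1 and Hoxb9 also had few reads in fl/fl EBd2, as their CPM given above show, so the sizes of their differences are loose. The call of Zfp352 in fl/fl was lost without any 1 of the 8 libraries.

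Among markers of other cells, the collagen gene Col6a3 differed by 3.33, the macrophage marker Cd68 by 1.60, the endothelial marker Esam by 2.80, and the epithelial genes Krt19 and Sfn by 1.61 and 1.97. The fl/fl call of Esam was lost without ES cell lot 2, EBd2 lot 12 or either labelled KO EBd2 library. The cholesterol synthesis genes Sqle and Fdps differed in the opposite sense, by -1.78 and -2.26, rising in fl/fl and falling in the labelled KO.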

How the results depend on the processing

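The 3 changes of scaling altered no call or direction among 237 named genes, and 223 of these were called in the main test. Without each library in turn, 8207 to 9824 genes were called (3970 to 4768 higher, 4237 to 5061 lower). With lots as a replicate block, 8351 were called (4108 higher, 4243 lower), and 7 named genes lost their call. In that fit 2-fold rises numbered 1112 and 2-fold falls 1371, Sox1 turned to 0.11 and Nr0b1 was called lower. Testing beyond 1.5-fold left 3043 genes (1447 higher, 1596 lower). Members higher beyond 1.5-fold were then 2 core pluripotency, 1 neuroectoderm, 5 FGF, 4 Nodal, 3 BMP, 3 Wnt, 0 junction and EMT, 1 endothelial, 7 cholesterol and 6 mitochondrial genes. Members lower beyond 1.5-fold were 3 trophectoderm, 5 germline, 3 DNA methylation, 1 PRC2, 3 stress response, 3 p53, 4 G1/S, 1 G2/M, 9 Hox and 1 ribosomal gene; here the test itself asks for larger changes. With at least 5 CPM in 2 libraries, 742 genes rose and 855 fell at least 2-fold, with 3 streak genes lower, 0 early mesoderm genes higher and 3 Hox genes lower, as low genes were not tested, and 3 two-cell-like genes higher. Hox genes called lower numbered 7 with the fl/fl libraries alone, 9 with the block, 7 by DESeq2, 7 after thinning and 9 to 13 without 1 library. Two-cell-like genes called higher numbered 3 without a filter, 2 with the fl/fl libraries alone, 3 with the block, 3 after thinning and 0 to 2 without 1 library. Without 1 library, the log2 change of Pecam1 ranged from -0.24 to 0.052 and that of Sall4 from -0.14 to 0.028, both turning positive without EBd2 lot 12. Otherwise the cause of these shifts was not tested. The lower depth of EBd2 limits genes of a few counts.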

Other observations

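Of 8 searches for short letters in the promoters of 6 gene lists, 4 are not described above. The sterol response letters TCACNCCAC were found in 1 of 16 cholesterol synthesis promoters, that of Hmgcs1, against 1.44% of all genes. The ESRRB letters TCAAGGTCA were found in 0 of 13 naive promoters, against 0.466% of all genes. The octamer ATTTGCAT was found in 1 of 13 naive promoters (Zfp42) and 1 of 13 formative promoters (Pim2), against 1.97% of all genes. Both strands were searched, and a window without these letters says nothing about the factor.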
